A study of Homo sapiens with 6 samples.

Results

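The genes described here are those on chromosome 7 in RNA sequencing of ARPE-19 cells, taken from the 1 gene table of the study. They were chosen by their position: every row on chromosome 7, whatever its biotype, was kept, put in order by gene start, and assigned to the short arm when it started below 60000000 on GRCh38 and to the long arm otherwise. This gave 347 of the 7758 genes in the table, 118 on the short arm and 229 on the long arm. The table itself was selected on the contrast it reports, because it holds only genes that the authors had called as different between the groups. The log2 ratios, calls and counts below therefore describe the selected genes, carry no test of their own, and say nothing about the chromosome 7 genes that are not in the table.

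ARPE-19 is a cell line of human retinal pigment epithelium (RPE). The sh-METTL3 cells carried a short hairpin RNA against METTL3 and the sh-Control cells a scramble hairpin. Both groups, of 3 libraries each, had received 1 μg/ml lipopolysaccharide (LPS, a bacterial inducer of inflammation) over 24 h, and no unstimulated cells were analysed here, so no value below measures the response to LPS. Per the methods the hairpins were delivered by lentivirus and stably transformed cells were selected. It was not stated if separate infections or cultures lay behind the libraries of a group, so the spread between them may be technical.

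METTL3 is the catalytic subunit of the enzyme complex that writes N6-methyladenosine (m6A) into mRNA, a mark that reader proteins use to alter the splicing, stability and translation of transcripts. Chromosome 7 carries genes of very different roles, among them cytokines and growth factors, collagen and elastin, the HOXA cluster, the interval deleted in Williams-Beuren syndrome, several imprinted genes and the reader gene IGF2BP3. Neighbouring genes that point away from each other often start within a short stretch of DNA rich in CG dinucleotides, so that both are transcribed from a shared upstream region.

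3 such shared stretches are shown because the pairs they separate lay in the table with both members, and because they show one pair that moved apart and a couple that moved together. Each runs between the GENCODE start sites of the minus-strand gene and the plus-strand gene, and no exon of the annotation lies in it. The letters are from RefSeq promoter windows on GRCh38.p14, on the plus strand, and the capitals mark CG dinucleotides.
TECPR1/BRI3 (chr7:98252252-98252378): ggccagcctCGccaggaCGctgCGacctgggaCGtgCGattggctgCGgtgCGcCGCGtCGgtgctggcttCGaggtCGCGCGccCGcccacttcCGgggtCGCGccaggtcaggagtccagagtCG
TP53TG1/CROT (chr7:87345516-87345680): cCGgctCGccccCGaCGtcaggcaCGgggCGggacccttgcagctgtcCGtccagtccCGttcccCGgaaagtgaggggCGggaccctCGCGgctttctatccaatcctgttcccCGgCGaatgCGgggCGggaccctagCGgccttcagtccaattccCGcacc
FBXL13/ARMC10 (chr7:103074844-103074880): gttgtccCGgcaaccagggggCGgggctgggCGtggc
The stretch of 127 bases between TECPR1 and BRI3 held 19 CG dinucleotides, that of 165 bases between TP53TG1 and CROT held 18, and that of 37 bases between FBXL13 and ARMC10 held 3. TECPR1 was lower and BRI3 higher in the METTL3-silenced cells, whereas both genes of the TP53TG1/CROT and FBXL13/ARMC10 pairs were higher.

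1 more sequence is shown for IL6, an inflammatory cytokine among these genes. It lies upstream of the RefSeq start site of IL6 on the plus strand of GRCh38.p14, ends before the first IL6 exon of the annotation near that site, and has in capitals a match to the binding motif of NF-κB, the factor through which LPS is known to act.
IL6 (chr7:22727027-22727146): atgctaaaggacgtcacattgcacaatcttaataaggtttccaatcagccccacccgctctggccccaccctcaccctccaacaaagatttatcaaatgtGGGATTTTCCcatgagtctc
The match began 73 bases before the RefSeq start site. The motif searched was GGG, then any 2 bases, TT, any base and CC, on both strands in the 250 bases before each start site. It was found for 12 of the 249 protein-coding members that had a RefSeq window, out of 295, which is 4.82%. Of all 27305 RefSeq promoters 5.14% held it. Among the members with a window it was found in 4 of 139 that were higher (2.88%) and in 8 of 110 that were lower (7.27%), beside 5.38% and 7.14% of the higher and lower protein-coding rows with a window in the whole table. A match describes letters only and is not evidence of binding.

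The values are scaled counts, which are gene read counts divided by 1 size factor per library. Reads on the listed genes numbered 10898434 to 17750052 per library, of which 495194 to 665868 fell on chromosome 7 genes. The depth of the whole libraries is unknown. METTL3, which lies on chromosome 14, had 1154, 1108 and 1091 scaled counts in sh-Control replicates 1, 2 and 3 and 966, 1001 and 765 in sh-METTL3 replicates 1, 2 and 3, a log2 ratio of group means of -0.30, and the groups did not overlap. sh-METTL3 replicate 3 stood somewhat apart: it was the library farthest from the others of its group for 166 of the 347 chromosome 7 genes (47.8%) and for 48.6% of all rows. Of 18 markers of RPE, 9 were in the table, 6 higher and 3 lower, among them KRT8 at 10761 ± 395 (SD, n = 3) against 22324 ± 1390 (SD, n = 3) and SERPINF1 at 1404 ± 21.1 (SD, n = 3) against 170.1 ± 11.8 (SD, n = 3). The summed scaled counts of the 4 listed fibroblast or mesenchymal markers of 5 ran from 11566 to 13389 in the control libraries and from 5031 to 5755 in the METTL3-silenced libraries. Those of the 2 listed leukocyte markers of 4, CD14 and ITGAM, ran from 101.9 to 122.0 and from 6.72 to 17.7. None of the 3 endothelial and 3 neuronal markers was in the table, nor was RPE65, and the level of a gene that is not in the table is not known here. The part of these shifts in the values below was not tested. All libraries are of 1 cell line, and in bulk RNA fewer cells with a marker's RNA and less of it per cell cannot be told apart.

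More of the listed chromosome 7 genes were higher than lower in the METTL3-silenced cells. Of the 347 genes, 205 were higher and 142, or 40.9%, were lower. The long arm leaned further to the higher side than the short arm: 85 of 229 genes were lower on the long arm (37.1%) and 57 of 118 on the short arm (48.3%). Over all 7758 rows 52.3% were lower. Chromosome 7 had the lowest percentage of lower genes after the sex chromosomes, among 25 chromosomes, the mitochondrial genome counted as 1. Of the sex chromosomes, Y had only 3 listed genes and X had 40.2% lower. Chromosomes 9, 22, 20 and 19 followed closely, with 43.9% to 44.6% lower, and the median log2 ratio of chromosome 9 was also 0.32. At the far end stood chromosome 15 with 68.6% and chromosome 11 with 76.6%. No test was made of these differences, since the table was selected on the same contrast.

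In limma, a linear model with moderated variances, on log2 of the scaled count plus a pseudocount of 1, all 347 genes passed a Benjamini-Hochberg adjusted p threshold of 0.05, as did 99.9% of all rows. 205 were called higher, where 47.6% of all rows were, and 142 were called lower, where 52.2% of all rows were. The 3 values of one group did not overlap those of the other for 340 of the 347 genes, and for 98.5% of all rows. A doubling or more was seen for 83 genes (23.9%) and a halving or more for 30 (8.65%), where 17.6% and 13.2% of all rows were called and changed by as much. These shares follow from how the table was selected and nothing is read from them. The 7 genes with overlapping groups were STEAP1B on the short arm and PMS2P10, TECPR1, DNAJC2, IQUB, ZC3HAV1 and TCAF1 on the long arm.

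The median log2 ratio of group means was 0.22 on the short arm and 0.40 on the long arm, beside -0.21 over all rows. Set against the mean of the controls, the medians of sh-METTL3 replicates 1, 2 and 3 were 0.17, 0.20 and 0.13 on the short arm and 0.36, 0.39 and 0.39 on the long arm. The 3 long-arm medians all lay above the 3 short-arm medians. They share 1 control mean per gene and the genes were selected on these same libraries, so this agreement is no support for a difference. A median near 0 has to be read with care here, because the listed chromosome 7 gene closest to 0, SND1, had a log2 ratio of 0.177. Where nearly as many genes are lower as higher, the median jumps across that gap. The short-arm median was -0.25 when only its 99 protein-coding genes were kept and -0.24 when only genes with a mean of at least 50 were kept, whereas the long-arm medians stayed positive at 0.32 and 0.30. Over all rows the medians under these 2 limits were -0.25 and -0.25, so the short-arm median then lay close to that of all rows. The short-arm share crossed 50% in the same way: 52.5% of protein-coding genes were lower on the short arm and 40.3% on the long arm, beside 56.1% over all protein-coding rows.

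**Figure D1:**
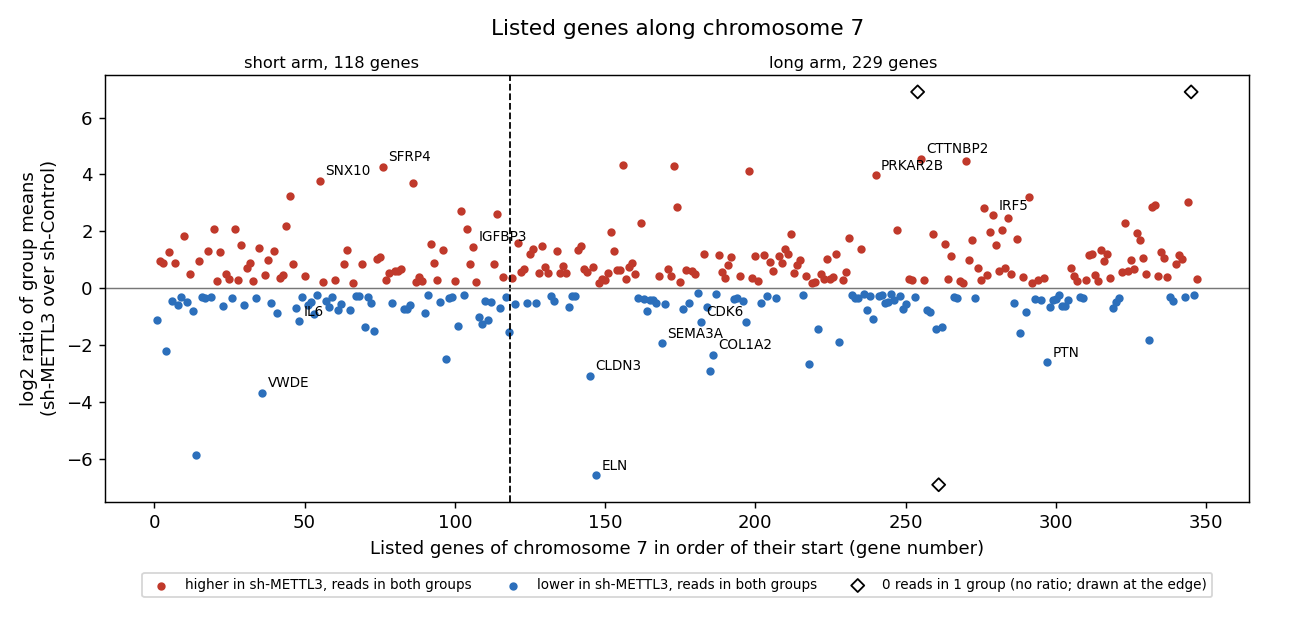
Log2 ratio of group means (sh-METTL3 over sh-Control, vertical axis) of the 347 listed chromosome 7 genes in order of their start (horizontal axis), red where higher and blue where lower, with the arm border as a dashed line and 3 genes without reads in 1 group as open diamonds at the edge. The empty band around 0 comes from the selection of the table, and red points outnumber blue points more on the long arm (144 to 85) than on the short arm (61 to 57).

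Level and biotype moved with the direction. Among genes with a mean under 100 scaled counts, 19 of 25 on the short arm and 48 of 59 on the long arm were higher, beside 65.9% of all rows at that level. Between 100 and 1000 the numbers were 26 of 54 and 63 of 103, beside 45.4%. Above 1000 they were 16 of 39 and 33 of 67, beside 39.3%. The long arm thus had the larger share of higher genes in each of the 3 classes, and both arms lay above all rows in each. For the short arm the shares were 48.1% between 100 and 1000 and 41.0% above 1000, close to those of all rows. The 52 genes that were not protein-coding were higher in 41 cases and lower in 11, with a median log2 ratio of 0.87, and the 295 protein-coding genes were higher in 164 cases and lower in 131, with a median of 0.27. Over all rows, 73.0% of the other biotypes and 43.9% of the protein-coding genes were higher.

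**Figure D2:**
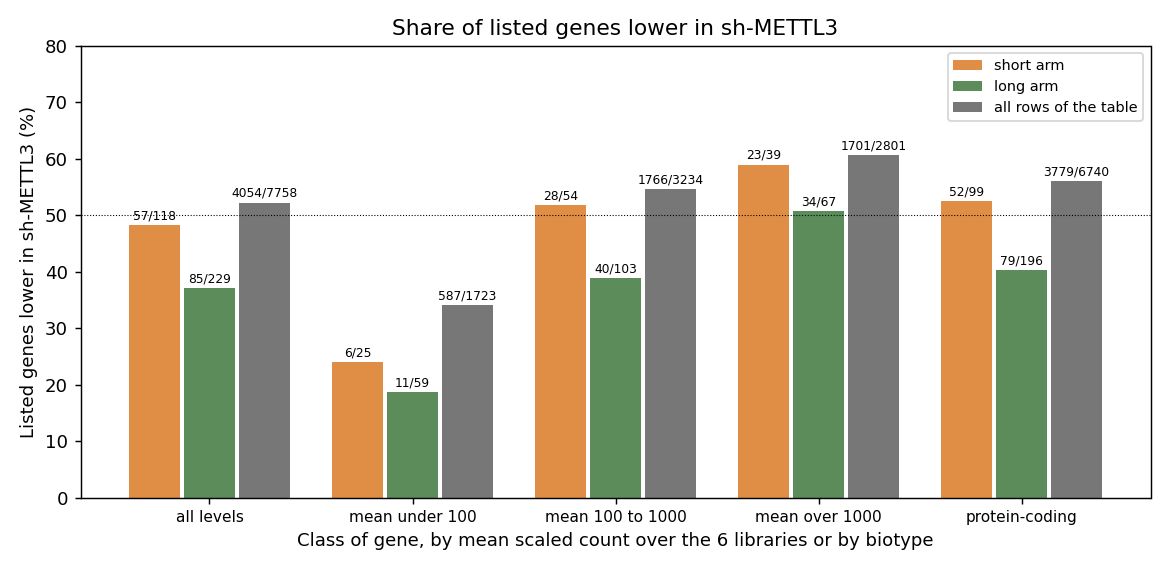
Percentage of listed genes that were lower in sh-METTL3 (vertical axis, from 0) for the short arm, the long arm and all rows of the table, in classes of mean scaled count over the 6 libraries and for protein-coding genes alone, with the number lower and the number of genes above each bar. In every class the long arm has the lowest bar and all rows the highest, and the bars rise with the level of the genes.

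Along the chromosome the direction varied between windows of 10 Mb. In window 16, the last of the long arm, 18 of 23 genes were higher, with a median log2 ratio of 0.98, and in window 13 it was 21 of 29, with a median of 0.61. The opposite was seen in windows 3 and 14, where 10 of 16 genes were lower in each, with medians of -0.31 and -0.37. Window 5 was even, with 15 higher and 15 lower. Windows 3 and 14 hold under 20 genes each, as do windows 2, 6, 7, 9 and 12, so 1 or 2 genes weigh heavily in them.

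**Figure D3:**
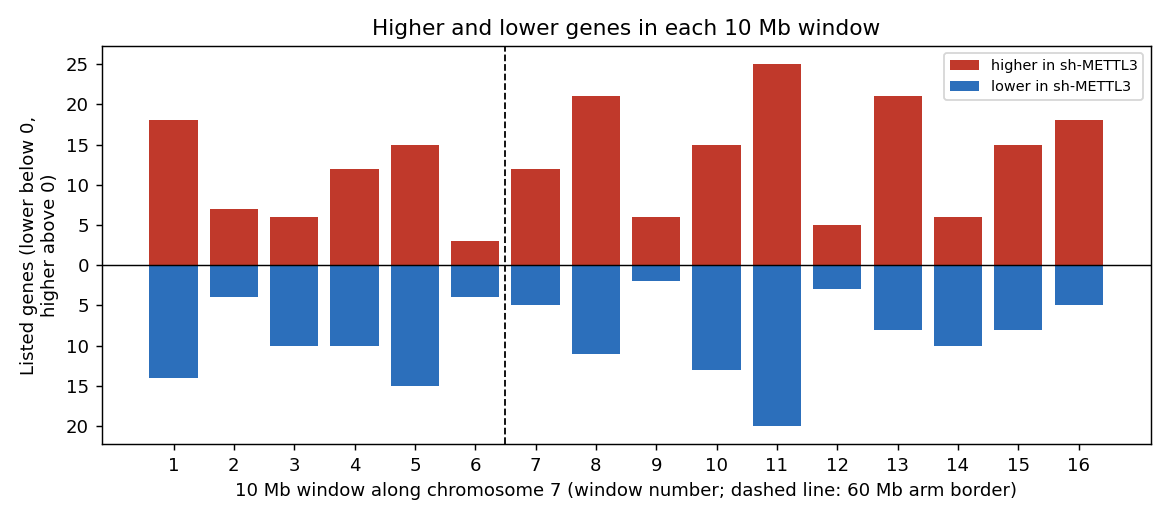
Number of listed genes that were higher (red, above 0) and lower (blue, below 0) in sh-METTL3 in each of 16 windows of 10 Mb along chromosome 7 (horizontal axis, window number), with the arm border as a dashed line. Window 16 has 18 higher and 5 lower genes, window 5 has 15 of each, and lower genes outnumber higher ones in windows 3, 6 and 14.

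Some stretches held several listed genes of one direction in a row. The longest was a run of 13 higher genes from LIMK1 to ZP3 (74082933 to 76442071), with a median log2 ratio of 0.63. A run of 12 higher genes from CCDC136 to UBE2H (128790757 to 129952949) had a median of 1.12 and included KCP, IRF5 and FLNC. The longest run of lower genes held 8, from PTN to SLC37A3 (137227341 to 140404433), with a median of -0.51. Neighbouring listed genes had the same direction in 195 of 346 pairs, or 56.4%, beside 59.1% over all chromosomes. Genes that are not in the table lie within these runs, such as EIF4H and CLIP2 within the first.

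Among the strongest falls on the short arm was VWDE, which encodes a protein with von Willebrand factor D and EGF domains. VWDE (ENSG00000146530, 12330885 to 12403941, minus strand) had 261, 299.8 and 263 in the sh-Control libraries and 20.5, 14.2 and 30.2 in the sh-METTL3 libraries. Its mean was 12.7-fold lower, and every control library lay far above every silenced library.

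Signals that cells secrete made up several of the other falls on this arm. IL6 had 673, 587 and 541 in the sh-Control libraries and 323, 299 and 188 in the sh-METTL3 libraries, and its group means were 601 ± 67 in sh-Control and 270.0 ± 71.9 in sh-METTL3 (each SD over 3 libraries). All 3 silenced libraries were below all 3 controls, with replicate 3 the lowest, and the mean was 2.22-fold lower. These values are RNA only. The paper reports that METTL3-silenced ARPE-19 cells secreted more IL-6 protein, above all with LPS, so the directions of RNA and secreted protein differed. PDGFA, a growth factor for mesenchymal cells, had 204, 208 and 201 in the sh-Control libraries and 98.9, 73.5 and 112 in the sh-METTL3 libraries and was 2.16-fold lower. BMPER, a secreted regulator of bone morphogenetic proteins, had 1943, 2177 and 2277 in the sh-Control libraries and 819, 983 and 722 in the sh-METTL3 libraries and was 2.53-fold lower. Each of these genes separated the groups completely. Other falls on this arm were taken from protein-coding genes with a mean of at least 100 in the higher group and no overlap. They were ABCA13 (an ABC transporter) at a log2 ratio of -1.10 and PKD1L1 (a polycystin family member) at -1.02. NFE2L3 (a basic leucine zipper transcription factor) followed at -0.89. Some genes outside these limits had lower log2 ratios than ABCA13, among them the noncoding SNHG15, and TBX20, whose mean was under 100 in both groups.

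IGFBP3, a secreted protein that binds insulin-like growth factors, was the member whose mean rose by the most scaled counts. IGFBP3 (ENSG00000146674, 45912245 to 45921874, minus strand) had 29701, 35324 and 37558 in the sh-Control libraries and 83532, 96372 and 103820.0 in the sh-METTL3 libraries, and was 2.77-fold higher. It took 5.66% to 6.98% of the chromosome 7 reads in the controls and 13.4% to 16.4% in the silenced cells. Chromosome 7 genes together took 3.70% to 3.76% of the reads on listed genes in the controls and 4.44% to 4.61% in the silenced cells. Without IGFBP3 these ranges were 3.50% to 3.52% and 3.86% to 3.88%, so the groups stayed apart and the gap narrowed. Per kilobase of transcript IGFBP3 was second among the members in the controls, at 7481 scaled counts, after ACTB, the cytoplasmic actin, at 20279. In the silenced cells the values per kilobase were 20690.2 for IGFBP3 and 24528 for ACTB.

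The larger short-arm rises in ratio came from weakly expressed genes. SFRP4, a secreted antagonist of Wnt signalling, had 8.77, 15.4 and 7.48 in the sh-Control libraries and 242, 239.7 and 131 in the sh-METTL3 libraries and was 19.4-fold higher. SNX10, a sorting nexin of the endosomal system, had 8.77, 7.69 and 7.48 in the sh-Control libraries and 129.7, 108 and 89.6 in the sh-METTL3 libraries and was 13.7-fold higher. In both genes the 3 controls stayed under 16 and the silenced libraries above 89. NACAD was 6.63-fold higher, COBL, an actin nucleator, was 6.06-fold higher, and ITGB8, an integrin subunit, was 4.59-fold higher. ADCY1, an adenylyl cyclase, was 4.24-fold higher. ABCB5, an ABC transporter, had 24.7, 5.76 and 6.54 in the sh-Control libraries and 124, 147 and 80.6 in the sh-METTL3 libraries, and was 9.49-fold higher, or 19.05-fold higher without sh-Control replicate 1.

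**Figure D4:**
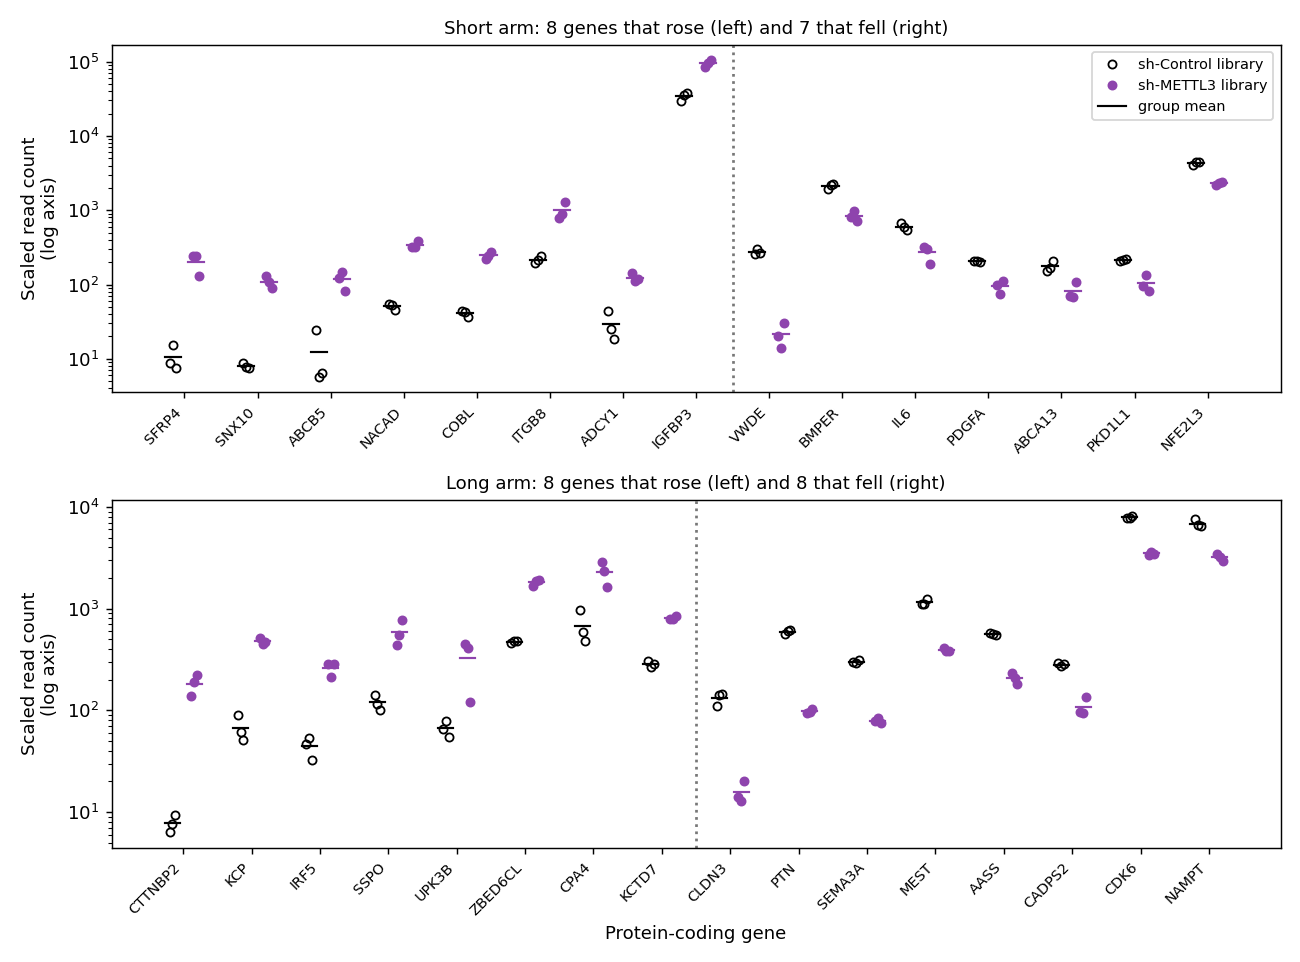
Scaled read counts (vertical axes, log scale) of protein-coding genes with the largest changes in log2 ratio, 8 that rose and 7 that fell on the short arm (top) and 8 that rose and 8 that fell on the long arm (bottom), among those with a mean of at least 100 in the higher group and no overlap, with open circles for the 3 sh-Control libraries, filled circles for the 3 sh-METTL3 libraries and a bar for each group mean. Groups do not overlap for any gene plotted, as the choice of genes required, and UPK3B has the widest scatter in sh-METTL3.

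On the long arm the largest rise of this kind was CTTNBP2, which encodes a cortactin-binding protein. CTTNBP2 (ENSG00000077063, 117710651 to 117874139, minus strand) had 6.38, 7.69 and 9.35 in the sh-Control libraries and 139, 188 and 223 in the sh-METTL3 libraries, and was 23.5-fold higher. KCP, a secreted modulator of bone morphogenetic protein signalling, had 90.9, 60.5 and 51.4 in the sh-Control libraries and 516, 449.7 and 466 in the sh-METTL3 libraries and was 7.06-fold higher. IRF5, a transcription factor of interferon and inflammatory responses, had 47.1, 53.8 and 32.7 in the sh-Control libraries and 287, 214 and 288 in the sh-METTL3 libraries and was 5.91-fold higher. In all 3 genes the lowest silenced library stood clear of the highest control. SSPO was 4.92-fold higher, ZBED6CL 3.86-fold higher and KCTD7 2.82-fold higher. CPA4, a carboxypeptidase gene that is imprinted in some tissues, had 962, 586 and 482 in the sh-Control libraries and 2846, 2329.9 and 1640.4 in the sh-METTL3 libraries and was 3.36-fold higher. UPK3B, a uroplakin, had 66.2, 78.8 and 55.1 in the sh-Control libraries and 445, 407 and 121 in the sh-METTL3 libraries, so that 1 of the 3 silenced libraries was much closer to the controls than the others, and its mean was 4.86-fold higher.

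The long-arm falls included adhesion, guidance and cell cycle genes. CLDN3, a tight junction claudin, had 110.1, 140.3 and 144 in the sh-Control libraries and 14, 12.9 and 20.2 in the sh-METTL3 libraries and was 8.38-fold lower. PTN, which encodes the heparin-binding growth factor pleiotrophin, had 558, 601 and 611 in the sh-Control libraries and 95.2, 96.7 and 102 in the sh-METTL3 libraries and was 6.02-fold lower. SEMA3A, a secreted guidance cue, had 299.9, 292 and 309 in the sh-Control libraries and 79.3, 83.8 and 75 in the sh-METTL3 libraries and was 3.79-fold lower. The silenced libraries of PTN and SEMA3A lay close together and far below their controls.

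CDK6, a kinase that drives entry into the cell cycle, was among the members with the most reads. CDK6 (ENSG00000105810, 92604921 to 92836594, minus strand) had 7794, 7723 and 8197 in the sh-Control libraries and 3399, 3631 and 3449.9 in the sh-METTL3 libraries, and was 2.26-fold lower. NAMPT, the rate-limiting enzyme of NAD salvage and also a secreted protein, had 7526, 6593 and 6445 in the sh-Control libraries and 3461, 3247 and 2944 in the sh-METTL3 libraries and was 2.13-fold lower. MEST, an imprinted gene expressed from the paternal copy, had 1111, 1103 and 1254 in the sh-Control libraries and 412, 381 and 384 in the sh-METTL3 libraries and was 2.94-fold lower. For each of these genes the silenced libraries were all below the controls. AASS, an enzyme of lysine breakdown, and CADPS2, which acts in the release of dense core vesicles, were 2.72-fold lower and 2.59-fold lower.

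The genes next to the 60000000 border showed no common direction. On the short-arm side the last 3 listed genes were PSPH, an enzyme of serine synthesis, at a log2 ratio of 0.40, CCT6A, a chaperonin subunit, at -0.29, and AC073136.1 at -1.52. On the long-arm side the first 3 were ZNF736 at 0.37, ZNF680 at -0.54 and AC073349.2 at 1.58. Moving the border to 58000000 or 62000000 left the same counts on both arms.

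Some genes had so few reads in 1 group that a fold is poorly set. ELN, which encodes elastin, had 240 reads in the controls and 2 in the silenced cells, a ratio of 94.7 with an exact 95% counting interval of 26.8 to 812. HECW1 had 3 reads in the controls and 31 in the silenced cells, a ratio of 13.2 with an interval of 3.96 to 64.8, and the ratio was 23.7 without sh-Control replicate 1. Such intervals cover counting error only. MNX1-AS1 had no reads in the controls and 21 in the silenced cells, and was at least 8.61-fold higher against a floor of 3 reads over the control group. FEZF1-AS1 had 14 reads in the controls and none in the silenced cells, and was at least 3.83-fold lower against the same floor in its group. In all, 7 members had 3 reads or fewer in 1 group.

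Lists of genes with a shared role gave a view beyond the single genes, and for each list the 347 members, with 40.9% lower and a median log2 ratio of 0.32, are the comparison. Of 26 secreted signals on the chromosome 12 were listed, 8 lower and 4 higher, with a median log2 ratio of -0.79. The lower ones included IL6, PTN and NAMPT, given above, and INHBA, the activin A subunit, which had 6643, 6869.9 and 7497 in the sh-Control libraries and 4544, 5124 and 2931 in the sh-METTL3 libraries and was 1.67-fold lower. The higher ones were IGFBP3, SFRP4, RARRES2 and CCL26. RARRES2, which encodes the chemoattractant chemerin, had 11457, 12221 and 12199 in the sh-Control libraries and 25533, 24862 and 24414 in the sh-METTL3 libraries and was 2.09-fold higher. CCL26, an eosinophil-attracting chemokine, had 5 reads in the controls and 88 in the silenced cells. The list therefore held inflammatory signals on both sides.

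All 10 listed genes of the 20 in the actin cytoskeleton list were higher, with a median log2 ratio of 0.32. Their changes were small for the abundant members. ACTB had 68366, 75149 and 70574 in the sh-Control libraries and 87634, 91166 and 80137 in the sh-METTL3 libraries and was 1.21-fold higher, and FLNC, an actin crosslinking filamin, had 28339.5, 32484 and 29748 in the sh-Control libraries and 36897, 36329 and 37347 in the sh-METTL3 libraries and was 1.22-fold higher. The log2 ratios of LIMK1, TNS3, CALD1, WASL, MTPN, ARPC1A and TRIP6 ran from 0.20 to 0.42, and that of ACTR3C was 0.98. The other 10 genes of the list were not in the table.

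Of 24 cell cycle and DNA replication genes 8 were listed, 7 lower and 1 higher, with a median log2 ratio of -0.36. After CDK6, the lower ones were FIGNL1 at -0.48, POLM, a DNA polymerase, at -0.47, NUP205, a nucleoporin, at -0.42, POT1, a telomere protein, at -0.29, MCM7, a replication helicase subunit, at -0.28, and CBX3, a heterochromatin protein, at -0.23. MCM7 had 3602, 3663 and 3449 in the sh-Control libraries and 3214, 3326 and 2309 in the sh-METTL3 libraries and sh-METTL3 replicate 3 was the lowest library. CDK14 was the higher one, at 0.62.

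Of 31 chromatin and RNA binding genes 14 were listed, 10 lower and 4 higher, with a median log2 ratio of -0.28. PUS7, a pseudouridine synthase, was 1.71-fold lower and NSUN5, an RNA methyltransferase, was 1.56-fold lower. Both listed genes that act on m6A were lower. IGF2BP3, an m6A reader that stabilises mRNA, had 645, 649.5 and 751 in the sh-Control libraries and 449.7, 438 and 465 in the sh-METTL3 libraries and was 1.51-fold lower. CBLL1, which encodes the writer complex subunit HAKAI, had 732, 723 and 670.2 in the sh-Control libraries and 489, 482 and 557 in the sh-METTL3 libraries and was 1.39-fold lower. The other gene of that list, the reader HNRNPA2B1, was not in the table.

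Of 26 matrix and adhesion genes 12 were listed, 6 higher and 6 lower, with a median log2 ratio of 0.16. On the lower side COL1A2, a chain of type I collagen, had 39.1, 58.6 and 68.2 in the sh-Control libraries and 6.53, 12.9 and 13.4 in the sh-METTL3 libraries and was 5.05-fold lower, and LAMB1, a laminin chain, had 12305, 12470.5 and 12360.0 in the sh-Control libraries and 9213, 9291 and 9114 in the sh-METTL3 libraries and was 1.34-fold lower. On the higher side stood ITGB8, TSPAN13 at a log2 ratio of 1.32 and THSD7A at 1.43. Of the 4 listed fibroblast or mesenchymal markers, COL1A1, the partner chain of COL1A2, THY1 and PDGFRB were lower, at log2 ratios of -2.00, -2.62 and -0.63, and TWIST1, itself a chromosome 7 gene, was higher at 0.48. COL1A1 made up most of the marker sum in the controls, with a mean of 7382 scaled counts against 1848 in the silenced cells.

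Receptors and signalling kinases were split. Of 30 genes 15 were listed, 8 higher and 7 lower, with a median log2 ratio of 0.20. EGFR, the receptor of epidermal growth factor, had 7123, 6831 and 6505 in the sh-Control libraries and 3698, 3814 and 5022 in the sh-METTL3 libraries and was 1.63-fold lower. SMO, the signal transducer of the Hedgehog pathway, was 1.52-fold higher. The neighbours CAV1 and CAV2, which encode caveolins, went in opposite directions, at log2 ratios of -0.31 and 0.29. PRKAR2B, a regulatory subunit of protein kinase A, had 10.4, 5.76 and 2.8 in the sh-Control libraries and 103, 88.9 and 105 in the sh-METTL3 libraries and was 15.7-fold higher.

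Of 33 other transcription factor genes 15 were listed, 7 higher and 8 lower, with a median log2 ratio of -0.23. AHR, the aryl hydrocarbon receptor, had 1295, 1270.2 and 1296 in the sh-Control libraries and 699.7, 723 and 676 in the sh-METTL3 libraries and was 1.84-fold lower. GLI3, a Hedgehog pathway factor, was 1.67-fold lower, and ETV1, an ETS family factor, was 2-fold higher. None of the 18 genes of the HOXA cluster was in the table. Of 40 zinc finger genes 13 were listed, 7 higher and 6 lower, with a median of 0.24.

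The imprinted genes of the list were almost all in the table, 6 of 7, with 3 higher and 3 lower. PEG10, a paternally expressed gene derived from a retrotransposon, had 1157, 1167 and 1049 in the sh-Control libraries and 2476, 2272 and 2825 in the sh-METTL3 libraries and was 2.24-fold higher. SGCE, its divergent and also paternally expressed neighbour, had 1273, 1262 and 1255 in the sh-Control libraries and 1107, 1079.9 and 1096 in the sh-METTL3 libraries and was 1.15-fold lower. The genes overlap at their starts, and they separated the groups in opposite directions. GRB10 was 1.81-fold higher, and TFPI2, a protease inhibitor, was 1.59-fold lower.

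In the Williams-Beuren interval 11 of 25 genes were listed, 6 higher and 5 lower. NSUN5, BAZ1B, TBL2, CLDN3 and ELN were lower. MLXIPL, VPS37D, DNAJC30, ABHD11, METTL27 and LIMK1 were higher, with log2 ratios from 0.20 to 1.48. Mitochondrial and energy genes were even, with 6 higher and 6 lower of 12 listed out of 25. The list of lipid, redox and transport genes had 9 of 29 listed, 7 higher and 2 lower, with a median log2 ratio of 0.42. Of 13 semaphorin and axon guidance genes 4 were listed, with SDK1 and PLXNA4 higher and SEMA3A and EPHB4 lower.

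Divergent pairs of a protein-coding gene and a noncoding gene were counted by direction. There were 19 pairs of listed chromosome 7 genes on opposite strands whose starts lay head to head within 1000 bases. In 12 of them 1 gene was protein-coding and the other was not. In 7 of these the coding gene was lower and the noncoding gene higher, in 5 both were higher, and in none was the noncoding gene lower. Over all rows there were 130 such pairs, of which 51 had the coding gene lower and the noncoding gene higher, 1 had the reverse, 58 had both higher and 20 had both lower. The signs of noncoding genes were mostly positive anywhere in the table, as given above, so nothing is read from the counts of these 12 pairs.

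GARS and GARS-DT were the pair with the most reads among the 7. GARS, the glycyl-tRNA synthetase, had 4004, 3604 and 3142 in the sh-Control libraries and 2264, 1956 and 2128 in the sh-METTL3 libraries and was 1.69-fold lower. GARS-DT, its divergent transcript, had 366, 369.9 and 351 in the sh-Control libraries and 654, 722 and 612 in the sh-METTL3 libraries and was 1.83-fold higher. The groups of both genes were apart, in opposite directions. PSMG3, a proteasome assembly chaperone, had 391, 371 and 388 in the sh-Control libraries and 295, 293 and 336 in the sh-METTL3 libraries, and PSMG3-AS1 had 89.3, 58.6 and 100.02 in the sh-Control libraries and 258, 281 and 343 in the sh-METTL3 libraries. PSMG3 was thus 1.25-fold lower and PSMG3-AS1 3.56-fold higher.

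On the long arm KMT2E, a chromatin regulator, and KMT2E-AS1 had log2 ratios of -0.19 and 1.39. PAXIP1, a DNA damage response protein, and PAXIP1-AS1 had -0.44 and 0.84. The starts of GARS and GARS-DT, of PSMG3 and PSMG3-AS1, and of KMT2E and KMT2E-AS1 overlap, with start sites 128, 932 and 142 bases apart. So do those of ZFAND2A and AC091729.3, of MIOS and AC004982.2, and of ARHGEF35 and AC004889.1. Of the 7 pairs with a lower coding gene and a higher noncoding gene, only those of TNRC18 and PAXIP1 do not overlap. Strandedness was not stated, so reads from the overlapping parts of a pair cannot be told apart. The starts of PAXIP1 and PAXIP1-AS1 do not overlap and lie 364 bases apart.

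The pairs whose shared stretches are printed above gave these values. TECPR1 had 1279, 1253 and 1085 in the sh-Control libraries and 922, 852 and 1091 in the sh-METTL3 libraries, and BRI3 had 2097, 1907 and 1754 in the sh-Control libraries and 2488, 2477 and 2772 in the sh-METTL3 libraries. The groups overlapped for TECPR1 and were apart for BRI3. CROT, an enzyme of peroxisomal fatty acid breakdown, had 339, 352 and 381 in the sh-Control libraries and 418, 452 and 565 in the sh-METTL3 libraries, and TP53TG1, its noncoding partner, had 55.8, 71.1 and 74.8 in the sh-Control libraries and 101, 95.4 and 124 in the sh-METTL3 libraries. ARMC10 was 1.22-fold higher and FBXL13 2.31-fold higher, the latter from means of 16.2 and 37.5 scaled counts.

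**Figure D5:**
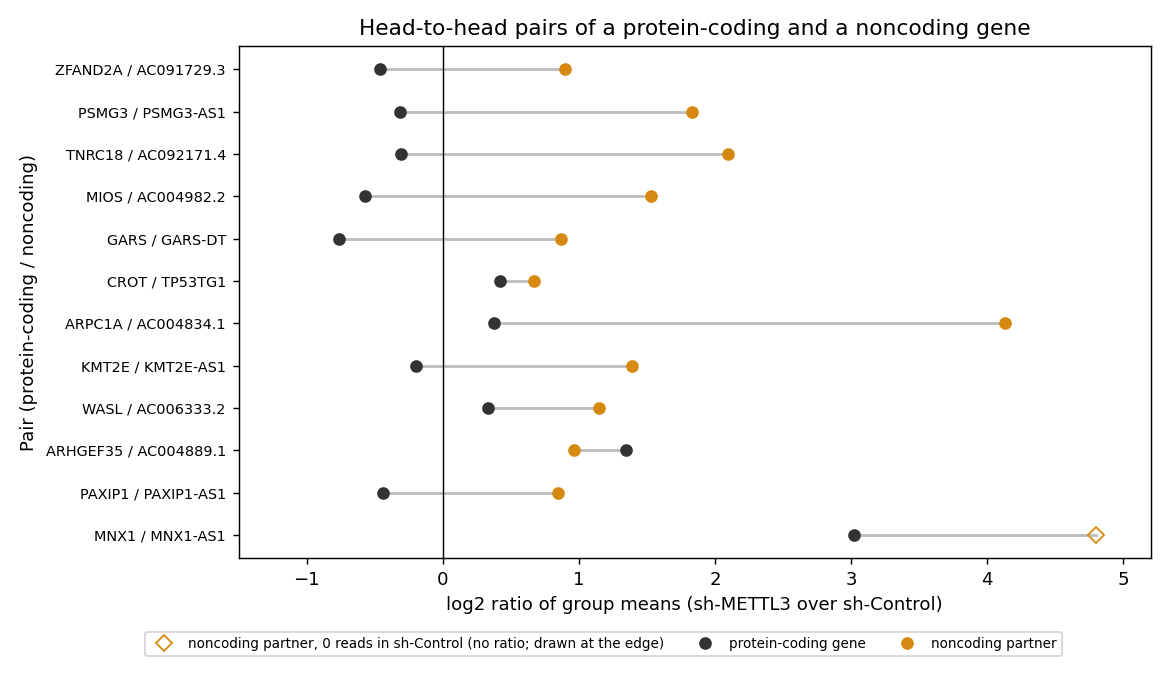
Log2 ratio of group means (sh-METTL3 over sh-Control, horizontal axis) of both genes of the 12 head-to-head pairs of a protein-coding gene (dark) and a noncoding gene (orange) on chromosome 7, joined by a line, with an open diamond at the edge for the gene without reads in sh-Control. Every noncoding gene lies right of 0, and the coding gene lies left of 0 in 7 pairs; both group means were under 40 scaled counts for MNX1, MNX1-AS1 and the partners of TNRC18, MIOS and ARPC1A.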

How the data were processed

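The 6 libraries were 3 of sh-METTL3 and 3 of sh-Control ARPE-19 cells, all given LPS, and groups were taken from the sample labels. Per the labels the tools include HISAT2 2.0.5 and the build is hg38. The methods name Cufflinks with RefSeq mRNAs, a form the table does not have: its rows carry Ensembl identifiers, and the start and end of all 7758 rows equal GENCODE release 29. The read counter and strandedness are not given in the sources used here. In the library columns the authors deposited a signal, in which each library's read counts were divided by a single size factor, and 100% of values came out as whole reads (tolerance 0.05). Columns of log2 fold change, p-value and its adjusted form, which the authors also deposited, were not used except to see that no adjusted p-value exceeded 0.05 and that about 22977 genes had been tested. How the size factors were made is not given in the sources used here, and the selection removes small changes. Near-identical copies, such as ARHGEF5 and ARHGEF35 or the PMS2 and GTF2I pseudogenes, may share reads.

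The members and lists were chosen with earlier results of these data known. Log2 ratios of group means, without a pseudocount, were described with no test. Calls were made with limma 3.58.1 (R 4.3.3) on log2(value + 1) with the trend option, over all 7758 rows, Benjamini-Hochberg adjusted, threshold 0.05, two-sided. Folds on that scale are understated for low genes. The named genes were, in each arm, 8 protein-coding genes that rose most and 8 that fell most, given a mean of at least 100 in the higher group and no overlap, the 3 genes on each side of the border, METTL3, and up to 4 examples of each list. 1 gene that this rule names is not reported here. Other genes were chosen after their values were seen, among them ACTB, ELN, HECW1, the head-to-head pairs and further members of the lists. A sum of 3 reads over a group was the floor. Alternatives were edgeR 4.0.16 and DESeq2 1.42.0 on the recovered reads, other scalings, a pseudocount of 0.1, a mean of at least 50, protein-coding genes only, other arm borders, a replicate block and each library left out. Simulated counts of 7758 genes, 200 of them changed by a log2 of 1 up or down, were given to limma and edgeR. Each recovered 98% of the changed genes and called 18 unchanged ones. Nearly all rows of the real table were selected as different, so the simulation does not bear on the calls made here. Promoter windows are from RefSeq (GRCh38.p14).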

Additional observations from a re-analysis of the deposited data

How the results depend on the processing

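All 347 calls held with edgeR on the table's size factors and with DESeq2, with a pseudocount of 0.1 and in the limma fit with a replicate block (347 calls); under edgeR with RLE factors 29 were lost, all of them lower ones (113 lower and 205 higher left). A limit of a doubling or halving left 113 calls, 83 higher and 30 lower, beside 17.6% and 13.2% of all rows. Leaving out 1 library at a time gave 337 to 343 calls (199 to 202 higher, 138 to 142 lower), and adjusting over 22977 tests, an alternative chosen after seeing the data, lost 6. The replicate numbers do not pair the libraries: correlations of deviations from the group means were 0.0036, 0.019 and -0.015 for numbers 1, 2 and 3. The medians were 0.26 (short arm) and 0.44 (long arm) with TMM factors, 0.34 and 0.52 with RLE factors, and 0.26 and 0.44 with totals of the listed genes, while the median of all rows moved from -0.21 to -0.17, -0.09 and -0.17. The short-arm median turned to -0.24 with a mean of at least 50 and to -0.25 with protein-coding genes only. There the long-arm medians were 0.30 and 0.32, and those of all rows were -0.25 and -0.25. The shares lower were then 51.0% and 41.7%, and 52.5% and 40.3%, for short and long arm. The cause of these moves was not tested. Without 1 library the medians ran from 0.19 to 0.23 and from 0.38 to 0.41, with the lowest values without sh-METTL3 replicate 3. No member changed direction in any of these fits, which says nothing of stability in a table selected on this contrast, where the member closest to 0, SND1, had a log2 ratio of 0.177. The ratios of 15 members moved by 1.5 times or more without 1 library. The depth of whole libraries is unknown, and genes outside the table were not analysed here.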
